A study of Mus musculus with 38 samples.

Results

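Astrocyte genes were followed as a set of 9, each measured in RNA of brain clonogenic libraries, out of 55487 genes in the brain table. The 9 were taken by name: Gfap, Aldh1l1, Fabp7, Slc1a2, Slc1a3, Aqp4, Ntsr2, Gja1 and Sparcl1. The series dealt with insulin resistance, triple-negative breast cancer and brain metastasis, by way of vesicles (exosomes) that adipocytes release. 4T1, a mouse mammary adenocarcinoma line, was the tumour model, and 3T3-L1, a mouse line that forms fat cells, gave the exosomes. The brain libraries fell into an insulin resistant (IR) group, an insulin sensitive (IS) group and an untreated control group, with 5 libraries each. A clonogenic assay grows colonies from cells of a tissue, and the labels call the cells of all 3 brain groups 4T1 mammary adenocarcinoma cells. The labels give the brain groups only as IR group, IS group and no treatment, and neither the mouse strain, the age nor the diet was given in the sources used here. For levels elsewhere, there were 5 IR and 4 control libraries of primary 4T1 tumours, 3 IR exosome, 3 IS exosome and 3 untreated libraries of cultured 4T1 cells, and 5 libraries of 4T1 cells from an experiment with the miRNA miR-145a-3p (3 by their titles) and its scramble control (2). The labels speak of biological replicates and do not say whether cultures or animals were separate. The spread that the p-values are measured against is that of these libraries and may in part be technical.

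Astrocytes are the star-shaped glia of the brain. They clear glutamate from synapses through sodium-driven transporters, wrap blood vessels with endfeet rich in a water channel, couple to each other through gap junctions and secrete proteins that act on synapses. After injury, and around tumour cells that have settled in the brain, they become reactive, a state in which the filament protein encoded by Gfap classically rises. No single gene of the set is confined to astrocytes in every tissue: connexin 43, encoded by Gja1, is also made by epithelial, endothelial and connective tissue cells, and Sparcl1 by blood vessels.

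Of the 9 genes, 8 were detected in all 15 brain libraries and passed the filter on low counts, which asked for 3 CPM (counts scaled to library depth) or more in at least 3 libraries. The exception was Ntsr2, which encodes a neurotensin receptor found on astrocytes. It had 0 counts over the IR libraries, where 3 counts would be 0.0615 CPM, 2 counts over the IS libraries and 1 count over the control libraries, and it was not tested. Summed over the 15 libraries, the 8 tested genes held between 765 counts (Aldh1l1) and 9292 counts (Gfap). Levels below are CPM relative to the counts of the tested genes after scaling between libraries. In bulk RNA, fewer cells of a type and less RNA per cell cannot be told apart.

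Against control, 3 of the 8 tested genes, Gja1, Sparcl1 and Slc1a3, were higher in IR libraries and 0 were lower (edgeR quasi-likelihood test, adjusted p under 0.05). Of all 12924 genes tested in that comparison, 11.7% passed in either direction, 6.45% as higher and 5.27% as lower in IR. The same 3 genes were higher in IS libraries than in control, where 6.46% of all genes passed, 3.37% as higher and 3.1% as lower in IS. Between IR and IS libraries 0 of the 8 passed, against 0.0464% of all genes (6 genes). At an unadjusted p under 0.05 there were 3 in that comparison (Gfap, Aqp4 and Fabp7), all lower in IR, beside 18.1% of all genes. DESeq2 called 1 of the 8 (Aqp4), beside 4.67% of all genes (604). Both comparisons with control used the same 5 control libraries. The median log2 change over the 8 genes was -0.11 for IR over control, 0.39 for IS over control and -0.27 for IR over IS, beside medians of 0.00, 0.00 and 0.01 over all genes tested.

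**Figure D1:**
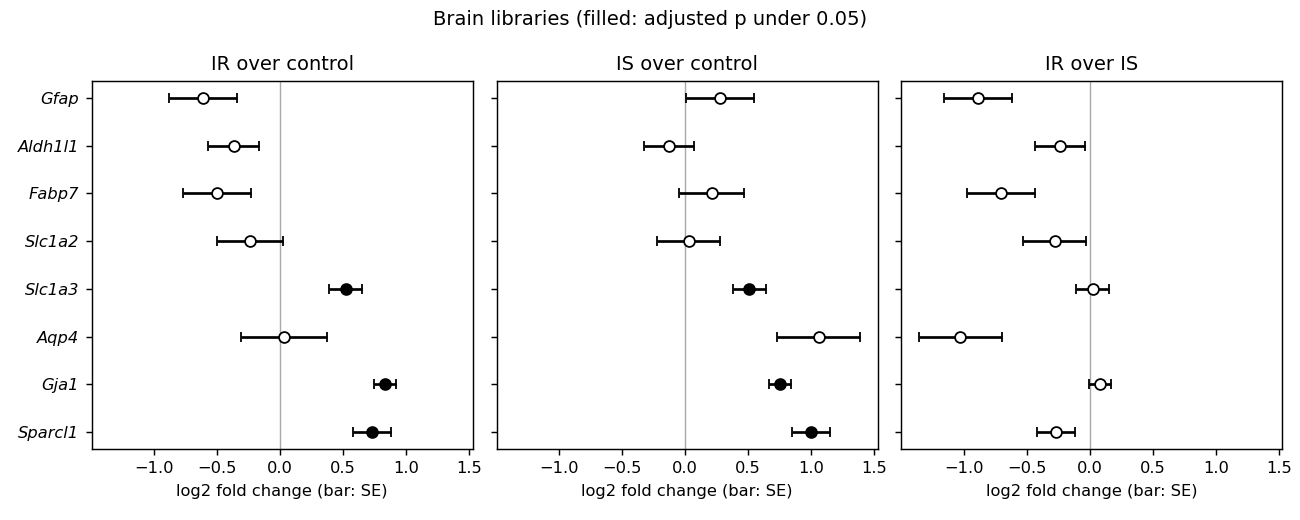
Log2 fold change (horizontal axis) of the 8 tested astrocyte genes (vertical axis) for IR over control, IS over control and IR over IS in the brain libraries (n = 5 each). Bars are standard errors and filled points have an adjusted p under 0.05: Gja1, Sparcl1 and Slc1a3 are filled in both comparisons with control, and no point is filled for IR over IS.

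Gfap encodes glial fibrillary acidic protein, the intermediate filament that marks astrocytes and rises in reactive ones. Its promoter window, 250 bases before to 50 bases after the gene's start, is shown with those of Slc1a3 and Gja1, both called against control; Sparcl1, called as well, is named only. The sequences are from RefSeq, build GRCm38.p6. Gfap is at chr11:102897151-102897450 on the minus strand, Slc1a3 at chr15:8710758-8711057 on the minus strand and Gja1 at chr10:56377050-56377349 on the plus strand. Capitals mark matches, on either strand, to the letters TTCNNNGAA (STAT), ACAANG (SOX), TTGGC (half-site of NFI) and TGANTCA (AP-1). STAT, SOX and NFI factors act in the making of astrocytes, and AP-1 answers to growth factors and stress.
Gfap: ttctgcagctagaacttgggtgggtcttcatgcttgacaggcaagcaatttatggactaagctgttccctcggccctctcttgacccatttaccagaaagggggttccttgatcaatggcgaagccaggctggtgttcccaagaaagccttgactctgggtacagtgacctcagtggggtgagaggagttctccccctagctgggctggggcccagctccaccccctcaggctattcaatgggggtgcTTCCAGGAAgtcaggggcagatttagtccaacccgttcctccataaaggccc
Slc1a3: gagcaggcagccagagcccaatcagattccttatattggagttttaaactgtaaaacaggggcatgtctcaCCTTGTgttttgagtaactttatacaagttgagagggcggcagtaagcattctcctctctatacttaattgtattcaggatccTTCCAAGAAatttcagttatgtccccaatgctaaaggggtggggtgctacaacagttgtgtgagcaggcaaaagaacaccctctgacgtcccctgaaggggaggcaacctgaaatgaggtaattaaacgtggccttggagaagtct
Gja1: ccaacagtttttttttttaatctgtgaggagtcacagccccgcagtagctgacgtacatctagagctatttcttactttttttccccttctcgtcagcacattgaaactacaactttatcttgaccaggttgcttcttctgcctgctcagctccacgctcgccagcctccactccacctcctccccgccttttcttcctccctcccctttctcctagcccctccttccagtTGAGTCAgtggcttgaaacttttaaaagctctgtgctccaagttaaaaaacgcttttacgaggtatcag
The Gfap window held a STAT match at bases -2 to 6, counted from 0 at the start. The Slc1a3 window held a STAT match at -96 to -88 and a SOX match at -179 to -174. The Gja1 window held none of those and an AP-1 match at -19 to -13. Of the 9 genes, 7 were searched: Aqp4 was left out beforehand, and no entry was found for Sparcl1. Ntsr2 also had a STAT match, and Slc1a2, Fabp7 and Ntsr2 an NFI half-site match, Fabp7 with a SOX match too. The Aldh1l1 window held no match, which says only that these letters are not in it. Of all 32851 promoter windows, 8.3% held the STAT letters, 41.2% the SOX letters, 46.7% the NFI half-site and 7.81% the AP-1 letters. The matches describe the windows and are no evidence of binding.

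Gfap was at 69.5, 36.7, 14.4, 46.6 and 36.8 CPM in IR libraries, at 53.6, 66.4, 80.8, 80.9 and 95.6 CPM in IS libraries, and at 80.6, 56.5, 57.2, 65.7 and 51.0 CPM in control libraries. IR 3 was the lowest of all 15 and IS 5 the highest, 4 of 5 IR libraries lay below every control library, and IR 1 lay among the controls. The means were 40.8 ± 19.9 CPM in IR, 75.4 ± 16.0 CPM in IS and 62.2 ± 11.6 CPM in control (SD, n = 5 each). The log2 change was -0.61 ± 0.27 (SE) for IR over control, with an adjusted p of 0.166 (edgeR quasi-likelihood test). It was 0.28 ± 0.27 for IS over control (adjusted p = 0.603) and -0.89 ± 0.27 for IR over IS (adjusted p = 0.0985). One library decided the first call: without IR 1, Gfap was lower in IR than in control at -0.89 (adjusted p = 0.0409), and the range of its adjusted p over all alternatives was 0.0409 to 0.318.

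Aldh1l1 encodes a folate enzyme of the cytoplasm that labels nearly all astrocytes. It was at 5.58, 3.95, 3.49, 4.25 and 4.06 CPM in IR libraries, at 5.05, 5.04, 4.00, 4.47 and 6.56 CPM in IS libraries, and at 7.53, 5.70, 5.86, 4.58 and 4.05 CPM in control libraries. The 3 groups overlapped, and the log2 change was -0.37 ± 0.20 for IR over control (adjusted p = 0.264) and -0.13 ± 0.20 for IS over control (adjusted p = 0.766, both edgeR).

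Fabp7, which encodes a fatty acid binding protein of radial glia and immature astrocytes, was at 8.51, 8.01, 16.0, 9.99 and 7.91 CPM in IR libraries, at 9.70, 10.4, 16.3, 19.2 and 26.9 CPM in IS libraries, and at 19.0, 15, 13.5, 12.4 and 11.6 CPM in control libraries. IR 3 stood above the other IR libraries, which all lay below every control library. For IR over control the log2 change was -0.50 ± 0.27 (adjusted p = 0.255, edgeR), and for IR over IS it was -0.71 ± 0.27 (adjusted p = 0.162). In IR 3, the library with the highest Fabp7 level of its group, Gfap was at its lowest. That is 1 library. For deviations of both genes from their group means, Pearson's r over the 15 brain libraries was -0.05 (adjusted permutation p = 0.871). Spearman's rho of their levels over the same libraries was 0.63 (adjusted permutation p = 0.0627).

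Of the 2 glutamate transporters, 1 passed. Slc1a3 (GLAST, the transporter of radial glia and early astrocytes) was at 30.6, 23.2, 23.8, 21.6 and 25.7 CPM in IR libraries, at 19.1, 28.6, 27.0, 23.9 and 24.8 CPM in IS libraries, and at 18.6, 17.9, 17.1, 19.7 and 13.6 CPM in control libraries. Every IR library lay above every control library, while IS 1 lay below control 4. Slc1a3 was 1.44-fold higher in IR than in control (log2 0.52 ± 0.13, adjusted p = 0.0153, edgeR) and stayed called in all 17 alternatives. It was 1.42-fold higher in IS than in control (log2 0.51 ± 0.13, adjusted p = 0.0273). The IS call ended without any one of control 2 (0.0551), control 3 (0.0600), control 5 (0.0688), IS 2 (0.0619) or IS 3 (0.0598) and with the replicate number as a block (0.0606), the values being adjusted p from edgeR.

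Slc1a2 (GLT-1, the main glutamate transporter of the mature forebrain) was at 27.2, 27.7, 16.2, 33.1 and 23.4 CPM in IR libraries, at 12.3, 24.3, 33.5, 37.1 and 47.0 CPM in IS libraries, and at 32.3, 32.5, 25.4, 31.0 and 29.7 CPM in control libraries. The IS libraries spread on both sides of the control libraries. The log2 change was -0.24 ± 0.26 for IR over control (adjusted p = 0.604) and 0.03 ± 0.25 for IS over control (adjusted p = 0.967, both edgeR). The difference between the changes of both transporters was not tested.

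**Figure D2:**
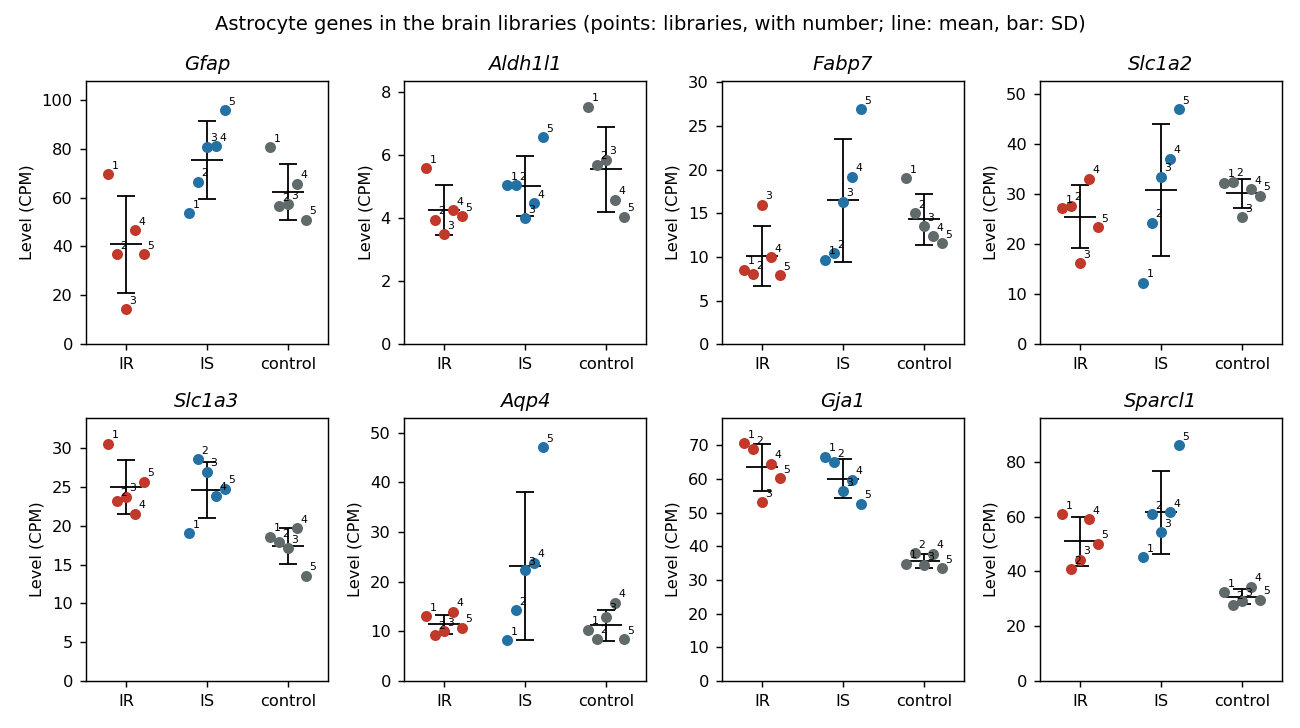
Levels in CPM (vertical axis, from 0) of the 8 tested astrocyte genes in the IR, IS and control brain libraries. Points are libraries with their number, the long bar is the mean and the error bar the SD (n = 5 each). For Gja1 and Sparcl1 all IR and IS points lie above all control points, and for Gfap, Slc1a2, Fabp7 and Aqp4 the highest point is IS 5.

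Aqp4, the water channel of astrocyte endfeet, was at 13.0, 9.32, 9.99, 13.9 and 10.7 CPM in IR libraries, at 8.23, 14.2, 22.3, 23.8 and 47.1 CPM in IS libraries, and at 10.3, 8.49, 12.9, 15.7 and 8.45 CPM in control libraries. IS 1 was the lowest of the 15 libraries and IS 5 the highest. Means were 11.4 ± 1.96 CPM in IR, 23.1 ± 14.8 CPM in IS and 11.2 ± 3.10 CPM in control. Aqp4 was 2.08-fold the control level in IS (log2 1.06 ± 0.33, adjusted p = 0.0702) and 0.03 ± 0.34 on the log2 scale from control in IR (adjusted p = 0.974, both edgeR). The IS comparison passed with DESeq2 (0.0169), with no filter on low counts (0.0406) and without IS 1 (0.0135), over a range of adjusted p of 0.0135 to 0.204. For IR over IS the log2 change was -1.03 ± 0.33 (adjusted p = 0.117).

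Gja1, which encodes connexin 43, the main gap junction protein of astrocytes, was at 70.5, 68.8, 53.0, 64.5 and 60.1 CPM in IR libraries, at 66.6, 64.9, 56.3, 59.7 and 52.6 CPM in IS libraries, and at 34.8, 38.0, 34.4, 37.8 and 33.5 CPM in control libraries. Every IR and IS library lay above every control library, whose SD was 2.07 CPM around a mean of 35.7 CPM. Gja1 was 1.78-fold higher in IR than in control (log2 0.83 ± 0.088, adjusted p = 0.000159) and 1.68-fold higher in IS than in control (log2 0.75 ± 0.088, adjusted p = 0.000195, both edgeR). IR and IS differed by 0.08 on the log2 scale (adjusted p = 0.684), a difference within the spread of either group.

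Sparcl1 encodes hevin, a secreted matrix protein by which astrocytes promote synapse formation. It was at 60.8, 40.7, 44.3, 59.0 and 50.1 CPM in IR libraries, at 45.2, 60.9, 54.3, 61.6 and 86.1 CPM in IS libraries, and at 32.5, 27.8, 29.2, 34.4 and 29.7 CPM in control libraries. Neither the IR nor the IS libraries overlapped the control libraries. Sparcl1 was 1.66-fold higher in IR (log2 0.73 ± 0.15, adjusted p = 0.00516) and 2.01-fold higher in IS (log2 1.00 ± 0.15, adjusted p = 0.000929) than in control (edgeR). The IR over IS change was -0.27 (adjusted p = 0.336).

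The libraries did not overlap with control in 3 of the 8 genes for IR (Gja1, Sparcl1 and Slc1a3) and in 2 of the 8 for IS (Gja1 and Sparcl1), in each case with control below. Over all genes, 11.8% had no overlap between IR and control libraries and 5.85% had none with IR above, and 7.81% had no overlap between IS and control libraries and 3.74% had none with IS above. Gja1 and Sparcl1 stayed called in both comparisons with control in each of the 17 alternatives. The number of astrocyte genes called ranged from 3 to 4 for IR against control and from 2 to 4 for IS against control over those alternatives.

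Compared per kilobase of merged exons (GENCODE M21), the level of Sparcl1 was the highest of the set in IR (17.4 ± 3.00 CPM per kb) and IS libraries (21.0 ± 5.18), while in control libraries Gfap was (14.7 ± 2.75, against 10.5 ± 0.909 for Sparcl1). Gfap was at 9.67 ± 4.72 CPM per kb in IR and 17.9 ± 3.79 in IS, and Fabp7 at 8.08 ± 2.73 in IR, 13.2 ± 5.63 in IS and 11.4 ± 2.32 in control. The ranges of Gfap and Fabp7 overlapped in each group, Gfap being the higher of the pair in 4 of 5 IR, 5 of 5 IS and 5 of 5 control libraries. Sparcl1 was above Gfap in 5 of 5 IR and 4 of 5 IS libraries, again with overlapping ranges. Gja1 had the next mean in every group, at 6.18 ± 0.689 in IR, 5.85 ± 0.567 in IS and 3.48 ± 0.202 in control. In IR its range overlapped that of Fabp7, which was the higher of the pair in 3 of 5 libraries. Slc1a3, Slc1a2 and Aqp4 lay between 1.80 and 3.71 CPM per kb in group means, and Aldh1l1 had the lowest mean of the tested genes, at 0.946 ± 0.174 in IR, 1.11 ± 0.213 in IS and 1.23 ± 0.297 in control.

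Within groups, the deviations from the group means correlated positively over the 15 libraries in 23 of the 28 pairs of tested genes, and 6 pairs passed a permutation test (two-sided, 100000 permutations) adjusted over the 28, of which 5 were positive. Sparcl1 and Aqp4 had the highest within-group r, 0.82 (adjusted permutation p = 0.028). Over all 15 libraries without centring their Pearson's r was 0.70 (adjusted permutation p = 0.0141) and Spearman's rho 0.68 (0.0594), and r was 0.49 without the 2 libraries farthest from the Sparcl1 median. Slc1a2 and Aqp4 had a within-group r of 0.80 (adjusted permutation p = 0.0454), with r = 0.64 (0.0618), rho = 0.59 (0.0627) and r = 0.71 without 2 libraries. Within groups Gfap had an r of 0.66 with Slc1a2 (adjusted permutation p = 0.028), 0.63 with Sparcl1 (0.0454) and 0.48 with Aqp4 (0.0449). Pooled, these 3 pairs had r of 0.61, 0.22 and 0.55 (adjusted permutation p = 0.0873, 0.658 and 0.147), rho of 0.62, 0.44 and 0.69 (0.0627, 0.209 and 0.0594), and r of 0.33, 0.13 and 0.59 without 2 libraries.

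The within-group r of Gja1 was 0.13 with Slc1a3 (adjusted permutation p = 0.711) and -0.19 with Sparcl1 (0.655). Over all libraries, where the shift between groups enters, r was 0.78 with Slc1a3 (0.00798) and 0.75 with Sparcl1 (0.0138), rho was 0.66 (0.0594) and 0.59 (0.0627), and r without 2 libraries was 0.65 for both, the values in brackets being adjusted permutation p. With Fabp7 its within-group r was -0.73 (adjusted permutation p = 0.0454), the only called pair of opposite sign. The pooled r of that pair was -0.41 (adjusted permutation p = 0.278), or -0.54 without 2 libraries, and rho was -0.58 (0.0627). The level of IS 5 was the highest of all libraries for Gfap, Slc1a2, Fabp7, Aqp4 and Sparcl1 and the lowest of the IS group for Gja1.

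**Figure D3:**
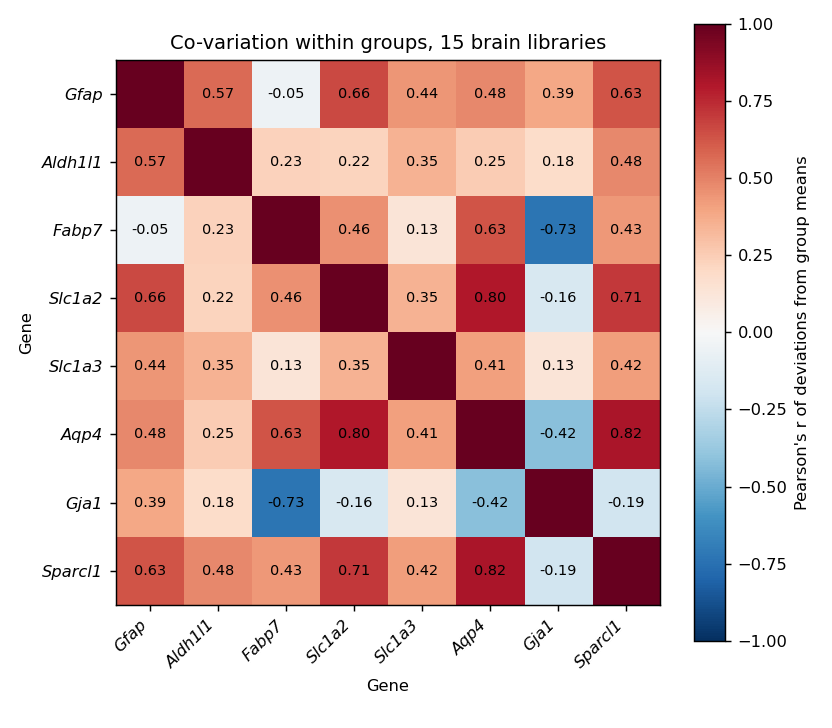
Pearson's r between each pair of the 8 tested astrocyte genes (both axes), computed over 15 brain libraries on deviations of the level from the mean of the library's group. The colour runs from -1 to 1. Aqp4 with Sparcl1 (0.82) and with Slc1a2 (0.80) are the highest, and Gja1 with Fabp7 (-0.73) is the lowest.

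By Spearman correlation over the 15 brain libraries, the genes most like the mean of the 8 standardised astrocyte genes were Kif21b (rho = 0.889), Spag9 (0.886), C3 (0.875), Mlc1 (0.868), Gm42427 (0.857), Ptprz1 (0.843), Fbxo32 (0.811), Camk1d (0.804), Gpr37l1 (0.804) and Gsr (0.789). These are a description of 15 libraries that may share steps of their preparation, picked as the highest among 12924 genes. Mlc1, a membrane protein of astrocyte endfeet, was also the gene most like Aqp4 (0.936, followed by Septin8 at 0.857). Slc25a18, a mitochondrial glutamate carrier, was the gene most like Sparcl1 (0.896, then Clic5 at 0.886). For Gja1 they were Nrarp (0.903), a target and regulator of Notch signalling, and the receptor gene Kit (0.896). For the others they were Mbd4 (0.911) and Kif21b (0.857) with Gfap, Nudt2 (0.907) and Pithd1 (0.839) with Aldh1l1, Zbed4 (0.900) and Naa50 (0.882) with Fabp7, Snx18 (0.964) and Lpgat1 (0.950) with Slc1a2, and Fyn (0.918) and Grem1 (0.896) with Slc1a3.

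A wider list of 40 astrocyte genes had 30 tested members, of which 4 were higher and 3 lower in IR than in control, with a median log2 change of 0.01. The 4 with the smallest adjusted p were Htra1, a secreted protease (-1.37 ± 0.23, adjusted p = 0.00152), F3, tissue factor (-0.87 ± 0.21, 0.0146), Sox9, a glial transcription factor (0.45 ± 0.12, 0.0242), and Ndrg2 (0.38 ± 0.10, 0.0248, all edgeR). In IS against control, 6 were higher and 1 lower, with a median of 0.32. Apoe, the main lipid carrier of the brain, was higher in IS (0.78, adjusted p = 0.0023), as were Slc25a18 (1.55, 0.00791) and Glul, glutamine synthetase (0.35, 0.0167), while Htra1 was lower (-1.07, 0.0106). The shares over all genes were 11.7% for IR and 6.46% for IS against control. Between IR and IS, 0 of the 30 passed with edgeR, with 12 at an unadjusted p under 0.05, where 18.1% of all genes lay. At the other end, Slc7a10 and Etnppl, markers of mature astrocytes picked after their values were seen, had group means of at most 0.0556 and 0.233 CPM. Those low values do not stand for the list, of which 30 of 40 members passed the filter on low counts.

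Of 36 genes tied to reactive astrocytes, 33 were tested and 6 were higher and 3 lower in IR than in control (median log2 0.08), against 1 higher and 0 lower in IS (median 0.20). Over all genes 11.7% passed for IR and 6.46% for IS. At an unadjusted p under 0.05 there were 8 of the 33 in IS against control, beside 21.7% of all genes (edgeR). The counts were not tested against these shares. Tm4sf1 (1.19, adjusted p = 0.00292) and Srgn (1.15, 0.0162) were higher in IR, and Vim, the filament protein vimentin (-0.45, 0.0124), and Sphk1 (-0.42, 0.0222) were lower (edgeR). The one called in IS was H2-D1, of antigen presentation (0.38, 0.0325). Between IR and IS, 0 of the 33 passed with edgeR, with 13 at an unadjusted p under 0.05, again beside 18.1% of all genes. Tm4sf1 and Srgn are also made by endothelial and blood cells. As a list, the 36 genes were not confined to brain libraries. Their summed level was 3670 to 4500 CPM in IR, 3670 to 4260 CPM in IS and 3690 to 4250 CPM in control brain libraries. It was 6400 to 6490 CPM in untreated 4T1 cultures and 9380 to 12000 CPM in control tumours. Of 18 transcription factors and signalling genes of astrocyte formation, 17 were tested, and 7 were higher in IR than in control and 0 lower (median 0.14), led by Smad1 (0.76, 0.00199), Id3 (0.50, 0.0200), Id1 (0.55, 0.0236) and Sox9. Smad1, Id1 and Id3 belong to the BMP pathway. In IS 1 of the 17 was higher, Sox9 (0.44, 0.0377), and 0 were lower. This list of 18 summed to 1190 to 1420 CPM in IR, 1020 to 1230 CPM in IS and 1170 to 1270 CPM in control brain libraries. In untreated 4T1 cultures its sum was 1290 to 1310 CPM. With IR exosomes in culture, 4 of 14 tested members were higher than in untreated cells and 0 lower, beside 13.6% of all genes (edgeR). The cell type behind these changes was not tested.

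Some marker lists of other cell types also differed between these groups, not all in the same direction. Over all genes, 11.7% passed for IR and 6.46% for IS against control. Endothelial genes were higher in IR than in control in 9 of 9 tested members of 10 (median log2 2.33) and in IS in 4 of 9 (median 1.25). Their summed level was 487 to 991 CPM in IR, 194 to 786 CPM in IS and 142 to 193 CPM in control libraries, with Pecam1 at 3.09 (adjusted p = 0.000409), Flt1 at 1.68 (0.000449), Esam at 1.96 (0.000468) and Cldn5 at 3.36 (0.000541) on the log2 scale for IR over control (edgeR). Microglia and macrophage genes were lower in IR than in control in 5 of 7 tested members of 12 (median -1.30), Csf1r among them (-1.60, 0.00391), and 0 of 7 passed in IS (edgeR, median -0.01). At an unadjusted p under 0.05 there were also 0 of 7 in IS, where 21.7% of all genes lay. Their summed level was 195 to 521 CPM in IR, 349 to 1330 CPM in IS and 697 to 911 CPM in control libraries. Cx3cr1, P2ry12 and Aif1, markers of microglia picked after their values were seen, had group means of at most 0.649, 0.510 and 0.338 CPM. Those low values do not stand for the list, of which 7 of 12 members passed the filter on low counts.

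Ependymal and choroid plexus genes summed to 950 to 1990 CPM in IR, 1350 to 3820 CPM in IS and 442 to 1360 CPM in control libraries. Of 7 members 5 were tested, 1 of them lower in IR (Foxj1, -0.57, 0.00853), and 2 higher (Ttr and Kcne2) and 1 lower (Foxj1) in IS. Oligodendrocyte genes summed to 99.5 to 159 CPM in IR, 107 to 177 CPM in IS and 105 to 126 CPM in control libraries. Of 10 members 5 were tested, and 3 were higher in IR (median log2 0.83) and 2 in IS (median 0.71) than in control, with 0 lower (edgeR). Beside this and the ependymal list, the shares over all genes were 11.7% for IR and 6.46% for IS against control. Neuron genes summed to 53.1 to 70.3 CPM in IR, 48.4 to 60.8 CPM in IS and 68.6 to 90.2 CPM in control libraries. Snap25 and Mog, of neurons and of myelin and picked after their values were seen, were near 0, with group means of at most 0.218 and 0.0373 CPM. Of the neuron list 4 of 12 members passed the filter on low counts, and of the oligodendrocyte list 5 of 10. The part of these cell types in the changes of Gja1, Sparcl1 and Slc1a3 was not tested. No gene of these lists was at 0 in all brain libraries.

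**Figure D4:**
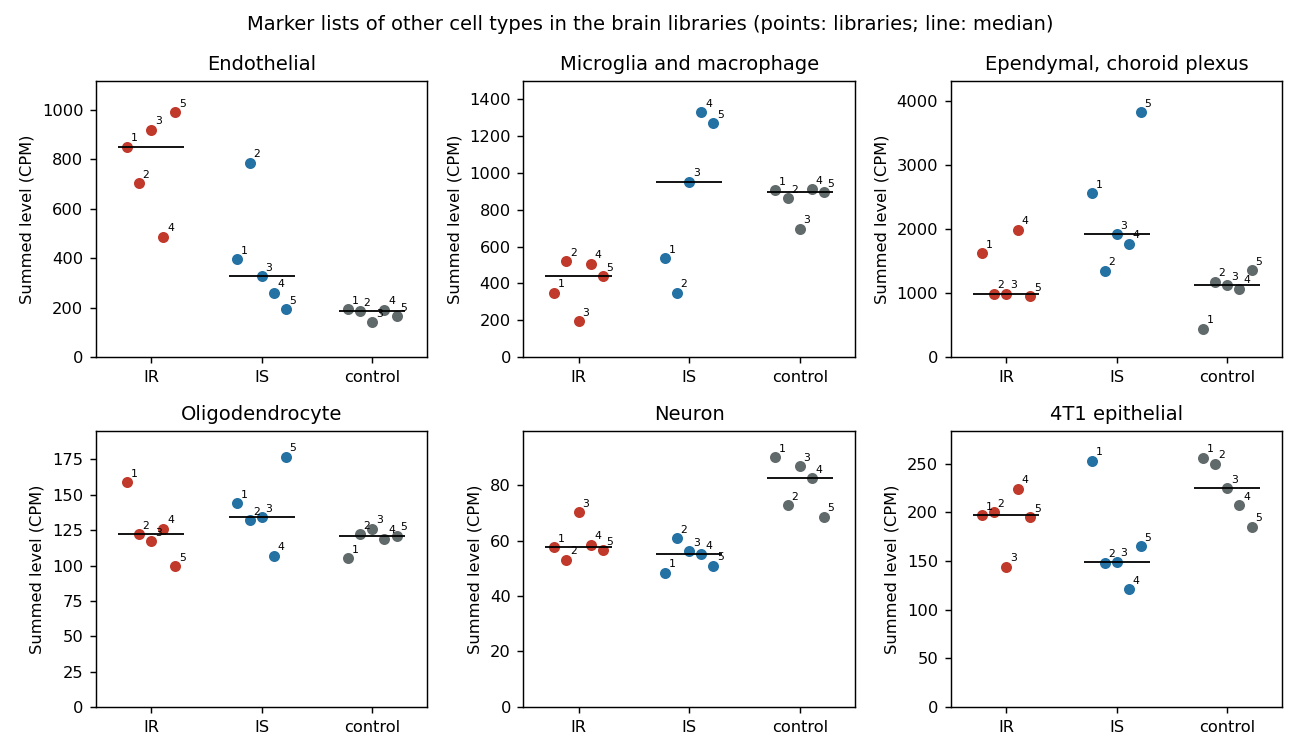
Summed level in CPM (vertical axis, from 0) of 6 marker lists of other cell types in the IR, IS and control brain libraries (5 each). Points are libraries with their number and the line is the median. Endothelial sums are 487 to 991 in IR and 142 to 193 in control, and in IS they run from 786 (IS 2) down to 194 (IS 5).

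Outside the brain table the astrocyte genes were low or at 0, except Gja1 in every table and Sparcl1, Aldh1l1 and Slc1a3 in tumours. Sparcl1 was at 92.2 to 323 CPM in tumours, above its 27.8 to 86.1 CPM in brain libraries. Aldh1l1 was at 3.50 to 21.6 CPM in tumours (median 10.2) and at 3.49 to 7.53 CPM in brain (median 4.58). Slc1a3 was lower in tumours, at 0.536 to 10.3 CPM, than in brain, at 13.6 to 30.6 CPM. As each table was quantified on its own, no test was made between tables. In cultured 4T1 cells, where 9 libraries were read, Aldh1l1, Fabp7, Slc1a3, Aqp4, Sparcl1 and Ntsr2 had 0 counts, and 3 counts over the libraries would be 0.0312 CPM. Gfap had 3 counts there and Slc1a2 2 counts. The 5 libraries of the miRNA experiment gave 0 counts for Aldh1l1, Fabp7, Slc1a3, Aqp4 and Ntsr2 (limit 0.0221 CPM), 1 count for Gfap, 5 for Sparcl1 and 13 for Slc1a2. In those 5 libraries the library names go against the titles, so they were used only as levels of 4T1 cells.

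Gja1 was higher in 4T1 cells than in any brain library, at 287 to 309 CPM in culture and 212 to 268 CPM in the miRNA experiment, against 33.5 to 70.5 CPM in brain. In culture, Gja1 did not pass for IR exosomes over untreated cells (log2 0.06 ± 0.035, adjusted p = 0.335), for IS exosomes over untreated cells (0.02 ± 0.035, 0.674) or for IR over IS exosomes (0.03 ± 0.035, 0.638), where 13.6%, 19.3% and 6.27% of 10888 genes passed (edgeR). A list of 10 4T1 epithelial genes summed to 144 to 224 CPM in IR, 121 to 253 CPM in IS and 185 to 256 CPM in control brain libraries, beside 3390 to 3430 CPM in IR, 2910 to 3000 CPM in IS and 3880 to 3890 CPM in untreated cultures. Of its 5 tested members, 1 was higher in IR than in control brain libraries (Krt19), and 1 was higher (Krt19) and 1 lower (Cldn4) in IS. Of all genes tested in brain, 11.7% passed for IR and 6.46% for IS against control. In IS, 4 of the 5 epithelial sums (121 to 165 CPM) lay below every control sum and IS 1, at 253 CPM, lay among them. In IR, every sum but that of IR 3 (144 CPM) lay within the control range of 185 to 256 CPM.

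In primary tumours Gja1 was at 690, 388, 601, 495 and 383 CPM in IR libraries and at 474, 342, 472 and 417 CPM in control libraries. Sparcl1 was at 154, 137, 182, 323 and 169 CPM in IR libraries and at 94.8, 92.2, 98.3 and 160 CPM in control libraries. For both genes the groups overlapped, Sparcl1 only through control 4. Matched by the number in the titles, the IR library was the higher in 4 of 4 pairs for both genes. The column of control 4 carries the number 5, and against IR 5 control 4 was the higher for Gja1 and the lower for Sparcl1. Of the 4 astrocyte genes tested there 0 passed for IR against control, as did 0% of 12962 genes, and 1 (Sparcl1) had an unadjusted p under 0.05, beside 7.65% of all genes. DESeq2 called 0 of the 4 and 0.957% of all genes (124). The log2 change of Sparcl1 was 0.79 ± 0.27 (unadjusted p = 0.015, adjusted p = 0.541) and that of Gja1 0.26 ± 0.20 (adjusted p = 0.864, edgeR). With the title number as a block the adjusted p was 0.105 for Sparcl1 and 0.249 for Gja1, and with the column number 0.490 and 0.859, with no call by either.

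Aldh1l1 was at 3.50 to 21.6 CPM in IR tumours and at 9.39 to 16.9 CPM in control tumours (log2 0.12 ± 0.55, adjusted p = 0.998). Slc1a3 was at 0.536 to 10.3 CPM in IR tumours and at 2.10 to 5.29 CPM in control tumours (log2 0.26 ± 0.74, adjusted p = 0.992, edgeR). For both genes the IR tumours lay on either side of the control tumours. Gfap had 6 counts over the 9 tumour libraries, and Fabp7, Slc1a2, Aqp4 and Ntsr2 reached at most 0.792, 1.03, 1.01 and 1.01 CPM in one tumour.

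**Figure D5:**
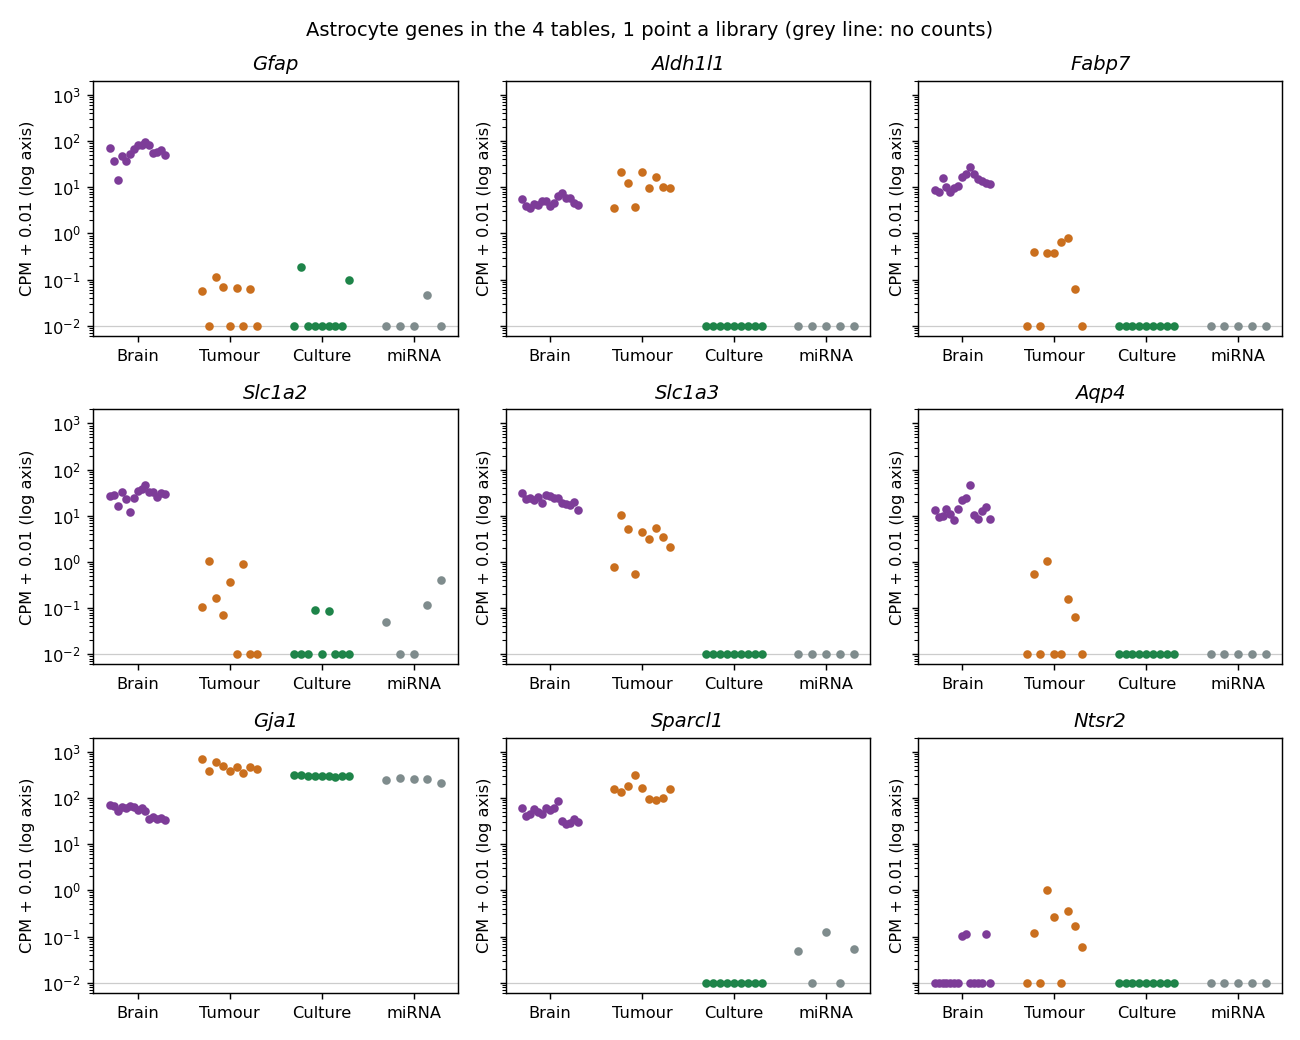
Levels of the 9 astrocyte genes in the 15 brain, 9 tumour, 9 culture and 5 miRNA experiment libraries, as CPM plus 0.01 on a log axis (vertical), 1 point per library, IR first, then IS, then control within a table. Points on the grey line had no counts. Gfap, Fabp7, Slc1a2 and Aqp4 are at 7.91 CPM or more in brain and at most 1.03 CPM elsewhere, while Gja1 is higher in all other tables than in brain.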

How the data were processed

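RNA was sequenced from a stranded messenger RNA kit as paired-end reads, per the labels' protocols. The authors deposited expected counts per gene from RSEM (brain and culture tables) and estimated counts from salmon (tumour and miRNA tables), per the file headers and labels. None were normalised between libraries as deposited. Trimmomatic, STAR, featureCounts, DESeq2 and the builds GRCm38 and GRCm39 are listed in the submitters' processing notes. The build, annotation and strand setting behind each table are not given in the sources used here. Library totals were 8790616 to 13272583 counts in the brain table and 8455412 to 32637552 counts over all tables, and limits from 0 counts cover counting error only. The culture table holds 3 further columns with no matching sample, which were left out.

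Brain and culture genes carried identifiers only. Their symbols came by identifier from the tumour table (52139 of 55487), then a reference table (3257), with 91 unnamed. Each of the 9 astrocyte genes matched 1 identifier. Expected counts were rounded. Following the filter in the series text, genes needed 3 CPM in 3 or more libraries of a table. The test was edgeR's quasi-likelihood test (version 4.0.16 in R 4.3.3, trimmed mean of M values, all groups of a table in 1 fit, no covariate). Benjamini-Hochberg adjustment ran over the whole table, and called means an adjusted p under 0.05. SE is of the log2 change. Correlations were computed with scipy 1.17.1 on log2 of CPM plus 0.5. The tests were tried on simulated counts.

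The 12 gene lists, the astrocyte genes among them, were chosen with earlier results of these data known. Every astrocyte gene is named, then at most 4 called members of a list with the smallest adjusted p, and the genes most alike by Spearman's rho. Alternatives were DESeq2 size factors, upper quartile scaling, no filter and a 10 CPM filter, DESeq2 1.42.0, the compared groups alone, a replicate block, and each library left out.

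Groups and library numbers came from titles. The 4th tumour control carries the number 5 in the table. In the brain table, same-numbered libraries of different groups correlated at -0.197 to 0.234 and were not treated as pairs in the main test. In the tumour table the 4 pairs by title number correlated at 0.107 to 0.760, but control 4 and IR 5, which share a column number, at -0.0142. Whether the numbers pair these libraries is not settled, and both blocks were fitted, the one by column number having been chosen after seeing the data. No duplicate libraries were found. In GENCODE M21, genes on the opposite strand overlap Gfap (Gm26668), Sparcl1 (Gm26703), Aldh1l1 (Gm15756), Slc1a2 (Gm13872) and Aqp4, and genes on the same strand overlap Aldh1l1 and Slc1a3 (Gm37310), so reads of these pairs may be shared.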

Additional observations from a re-analysis of the deposited data

Results flagged for a closer look

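Of 32 sets of 4 or 5 libraries of 1 gene in 1 group, 4 held a library far from the others by Dixon's criterion. Chance gives about 1 in 20 such sets. In the brain table this was Fabp7 in IR 3, at 16.0 CPM, with the other IR libraries at 7.91 to 9.99 CPM. In the tumour table, Sparcl1 was at 323 CPM in IR 4, with the others at 137 to 182 CPM, and at 160 CPM in control 4, with the others at 92.2 to 98.3 CPM. Aldh1l1 was at 16.9 CPM in control 2 of the tumours, with the others at 9.39 to 10.2 CPM. The cause was not tested.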

How the results depend on the processing

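Of 106 recomputed counts of called astrocyte genes, 102 stayed within 1.5 times the count reported. This limit takes 2 or 4 calls in place of 3 as the same. In culture and tumours every recomputed count was 0, as was the count reported. The exceptions were all for IR over IS in brain, where the count was 1 in place of 0 with no filter on low counts (Gfap, -0.90, adjusted p = 0.0478), 1 with DESeq2 (Aqp4, adjusted p = 0.0388) and 0 to 1 when 1 library was left out (Aqp4 without IS 1, 0.0498, and without IS 2, 0.0409). Over all genes that comparison gave 6 calls, 334 with no filter, 604 with DESeq2, and 0 to 1171 with 1 library left out (1171 without IS 2). Left-out libraries gave 838 to 1803 calls for IR over control (main 1514) and 461 to 874 for IS over control (main 835).

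No called gene changed sign. Uncalled ones did: with the replicate block, Slc1a2 was at -0.02 for IS over control in brain, and in tumours, by title number, Aldh1l1 was at -0.51 and Slc1a3 at -0.46. Slc1a3 for IR over IS was at 0.00 with upper quartile scaling and with the 10 CPM filter. With 1 library left out, Aqp4 ran from -0.06 to 0.18 for IR over control. For IS over control, Aldh1l1 ran from -0.25 to 0.00, Slc1a2 from -0.18 to 0.24 and Fabp7 from -0.05 to 0.36. Slc1a3 ran from -0.07 to 0.08 for IR over IS. In tumours Aldh1l1 ran from -0.18 to 0.37 and Slc1a3 from -0.39 to 0.54. The cause was not tested. In tumours, where the pairing is not settled, the replicate block changed no call of an astrocyte gene, by title number or by column number. In brain the numbers were not used as pairs because the correlations were low, which does not settle whether they pair the libraries. There the replicate block ended the Slc1a3 call for IS (adjusted p = 0.0606, edgeR). At this depth Ntsr2, with 3 counts over the brain libraries, could not be tested.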

Other observations

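Notch1, a receptor of neural progenitors, was higher in IR than in control brain libraries (log2 0.89 ± 0.16, adjusted p = 0.00199, edgeR), the 1 called gene of 11 tested members of a progenitor list of 15, and 0 of the 11 passed in IS (3 at an unadjusted p under 0.05, beside 21.7% of all genes). Its mean was 63.4 ± 11.5 CPM in IR, 43.4 ± 11.3 CPM in IS and 34.2 ± 3.53 CPM in control libraries (SD, n = 5 each). The cell type behind the change of Notch1 was not tested. Of 14 mural, fibroblast and meningeal genes 13 were tested. Ptgds, a prostaglandin synthase of the meninges and choroid plexus, was higher in IR (1.14, adjusted p = 0.000697) and in IS (1.19, 0.000603) than in control, while Col1a2, a collagen chain, was lower in IR (-0.78, 0.0220). Of 4 tested neuron genes of 12, 1 was lower in IR (Map2, a dendrite protein, -0.73, 0.0180) and 1 in IS (Stmn2, -1.12, 0.0207). Beside these counts, 11.7% of all genes passed for IR and 6.46% for IS against control. The progenitor counts, 1 of 11 in IR and 0 of 11 in IS, were not tested against those shares. Between IR and IS 0 genes of these 3 lists passed with edgeR. At an unadjusted p under 0.05 there were 2 progenitor genes, 1 neuron gene and 0 of the 13 mural, fibroblast and meningeal genes, beside 18.1% of all genes.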
